A study of Homo sapiens with 36 samples.

Results

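Sunitinib is an oral inhibitor of receptor tyrosine kinases used against renal cell carcinoma. The genes of 9 receptors that it inhibits are described here: PDGFRA and PDGFRB, FLT1, KDR and FLT4, KIT, FLT3, CSF1R, and RET. They were chosen by name, as known targets of the drug, and all 9 symbols matched an identifier among the 45478 genes counted. The counts come from RNA sequencing of 36 libraries, in 12 groups of 3, from A498 and 786-O. Both are established human cell lines grown from clear cell renal carcinomas. The cells were A498 labelled sunitinib-resistant, parental A498, sunitinib-resistant 786-O and parental 786-O. Each of these 4 cell states was kept for 24 h with 1 of 3 antibodies to PD-L1 (atezolizumab, avelumab, durvalumab), at 10 mg/mL in the labels' unit. All libraries therefore came from antibody-treated cells, and untreated cells are not analysed here.

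Resistant cells had been grown in rising sunitinib until they grew stably at 2 µM (A498) or 4 µM (786-O, whose name is misspelt in that label), with the drug present throughout selection. Whether they were clones or pools, and whether sunitinib was present during the antibody treatment, is not given in the sources used here. The prefix of the library names changes with the cell state. The effects of resistance and of any batch that followed the cell state cannot be told apart. Nothing in the labels ties the 3 libraries of a group to separate cultures. The p-values therefore describe the spread among these libraries alone, and that spread may be technical.

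Total counts ran from 19994882 to 58122896 per library. Of 10 renal carcinoma markers, including PAX8, PAX2 and EPAS1, 8 to 9 reached 1 CPM (counts scaled to the library total) in each state. HIF1A serves as a check of the line because its RNA level separated parental A498 from parental 786-O. It averaged 8.99 ± 0.49 CPM in A498-labelled resistant libraries and 294 ± 7.4 CPM in A498 parental. It averaged 8.71 ± 0.42 CPM in 786-O resistant, against 9.36 ± 0.57 CPM in 786-O parental (SD, n = 9 each). A498-labelled resistant libraries thus stand with 786-O on this gene and go against their label, and every comparison that uses them is given as a comparison of libraries so labelled.

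All 9 receptors span the membrane once, bind a ligand outside the cell and carry a tyrosine kinase inside it. Ligand binding joins receptors in pairs, which phosphorylate each other and recruit relay proteins such as PLCG1, GRB2 and the PI3-kinase subunits. The PDGF receptors act mainly in mesenchymal cells and pericytes, the VEGF receptors (FLT1, KDR, FLT4) in blood and lymphatic endothelium, KIT in mast cells and progenitors, FLT3 in blood progenitors, CSF1R in macrophages and RET in neural and kidney development. In clear cell renal carcinoma, loss of VHL drives secretion of VEGF and PDGF by the tumour cells, and receptors on the stroma and vessels are the usual targets named for sunitinib.

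The kinases are related, and a coding stretch of the catalytic loop is printed for each. This loop is the part of the kinase domain that holds the catalytic aspartate. The stretch is shown because the genes are told apart in these counts by sequence alone. It is 24 bases long, read from GENCODE 29 transcripts, and capitals mark the 14 positions shared by all 9 receptors. The stretch was found by its amino acids, HRD, then L or V, then AARN. That search fixed most of the shared positions in advance, so they do not measure how closely the kinases are related.
PDGFRA: CAccGtGAtcTGGCtGCtcGcAAc
PDGFRB: CAcaGaGAccTGGCgGCtaGgAAc
KIT: CAcaGaGActTGGCaGCcaGaAAt
CSF1R: CAccGgGAcgTGGCaGCgcGtAAc
FLT3: CAcaGaGAccTGGCcGCcaGgAAc
FLT1: CAtcGgGAccTGGCaGCgaGaAAc
KDR: CAcaGgGAccTGGCgGCacGaAAt
FLT4: CAcaGaGAccTGGCtGCtcGgAAc
RET: CAtcGgGActTGGCaGCcaGaAAc
Any pair of these stretches differed at 2 to 9 positions, a range that the search also limited. Over whole transcripts, the longest run of identical bases was 12 to 23 bases across the 36 pairs of receptors. PDGFRA shares 15.8% of its exonic length with the overlapping gene AC058822.1 on the same strand, so its counts are uncertain. For the other 8 receptors that share was 0%.

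Transcripts of the receptors were scarce. Summed over all 9 genes, A498-labelled resistant libraries held 5.51 to 7.25 CPM (median 6.53) and A498 parental libraries 0.837 to 1.41 CPM (median 1.27). The sum was 1.11 to 1.53 CPM (median 1.25) in 786-O resistant libraries and 1.69 to 2.58 CPM (median 2.13) in 786-O parental libraries. Only 2 receptors averaged at least 1 CPM in any state, PDGFRB in A498-labelled resistant libraries and CSF1R in 786-O parental. The libraries are bulk samples, so fewer cells that transcribe a gene and less RNA per cell cannot be told apart.

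The make-up of this small pool differed between the cell states. PDGFRB gave 93.0% of the 1437 receptor counts in A498-labelled resistant libraries, against 25.6% of 359 in A498 parental. It gave 48.9% of 474 counts in 786-O resistant, against 12.7% of 731 counts in 786-O parental. CSF1R gave 4.04% in A498-labelled resistant libraries against 13.6% in A498 parental, and 19.8% in 786-O resistant against 78.1% in 786-O parental. A498 parental cells had the most mixed pool, in which FLT4, PDGFRB, KIT and CSF1R each made a sizeable share.

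**Figure D1:**
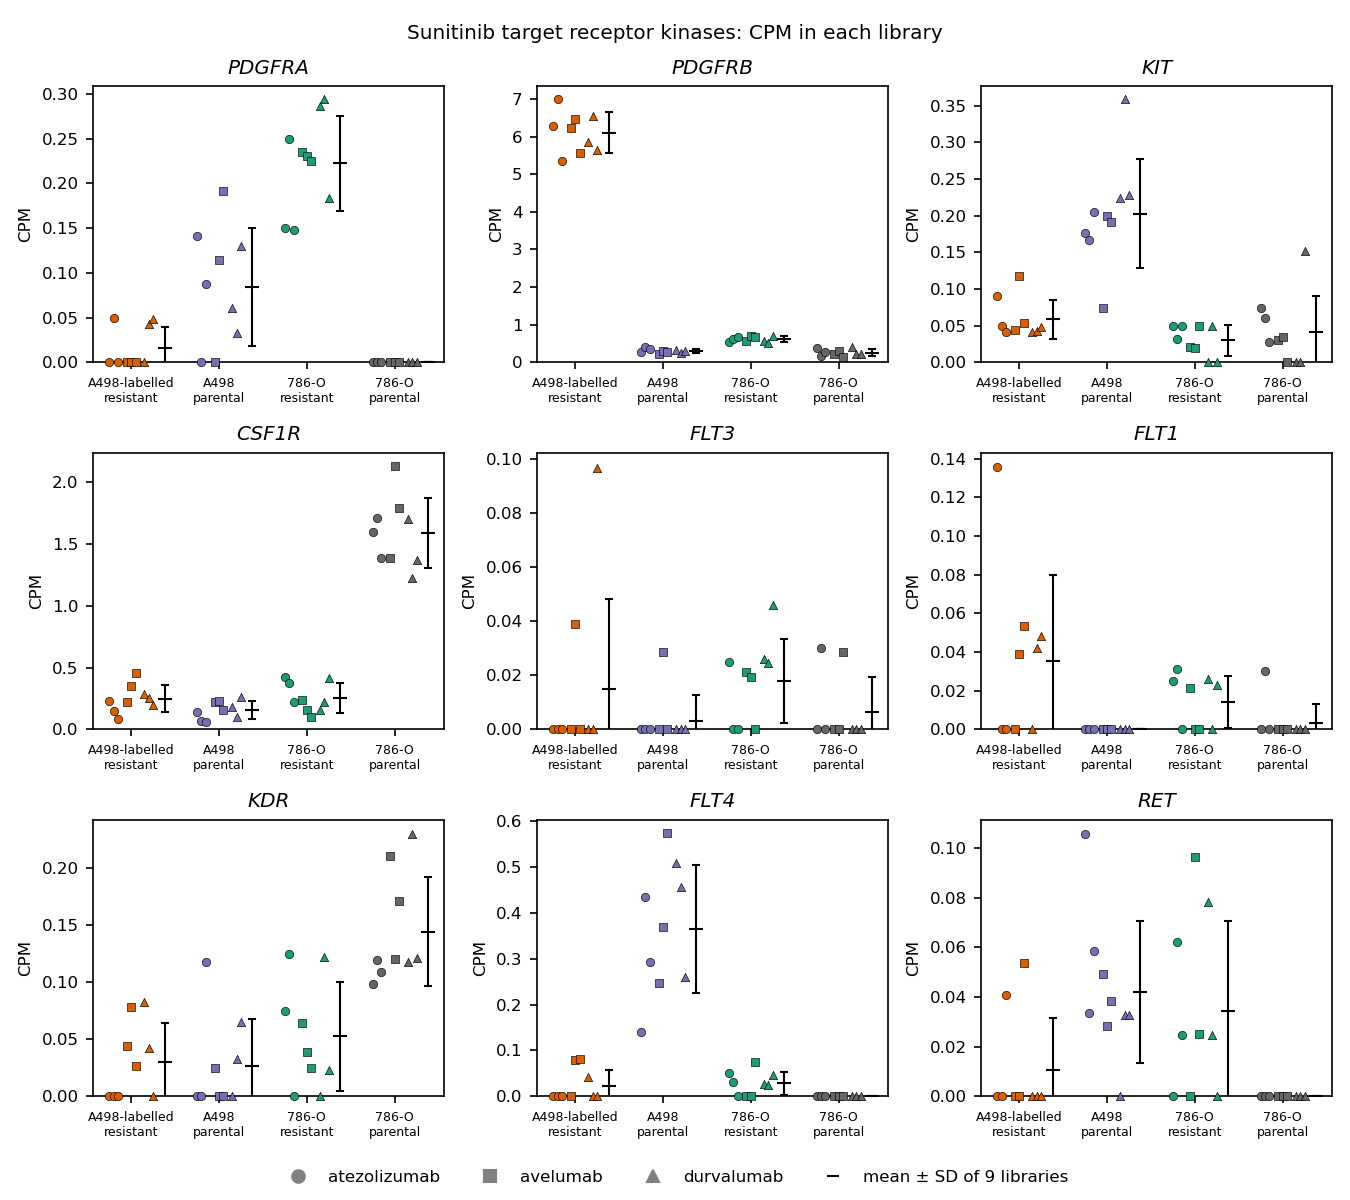
CPM of each receptor gene (y axis, linear, its own scale in each panel) in every library, by cell state on the x axis; symbols mark the antibody and the bars the mean ± SD of 9 libraries. PDGFRB stands apart in A498-labelled resistant libraries at 5.35 to 7.00 CPM, CSF1R in 786-O parental at 1.23 to 2.13 CPM and FLT4 in A498 parental at 0.141 to 0.573 CPM.

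**Figure D2:**
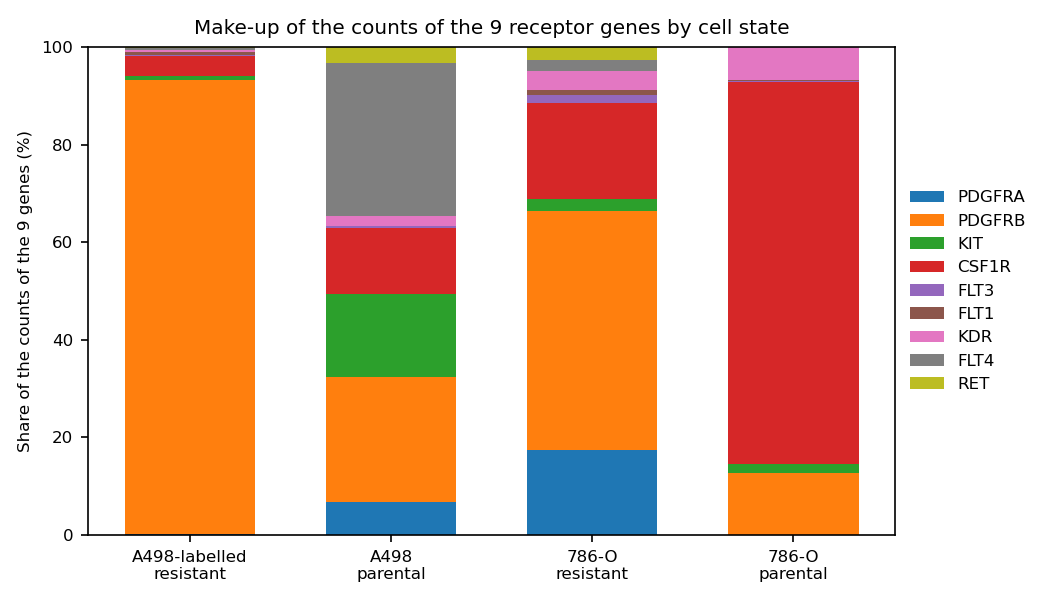
Share of the pooled counts of the 9 receptor genes (y axis, percent) taken by each gene in the 9 libraries of each cell state (x axis). PDGFRB fills 93.0% of the bar of A498-labelled resistant libraries and CSF1R 78.1% of that of 786-O parental.

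Scaled by exonic length (RPKM), the receptors can be ordered within a state. In A498-labelled resistant libraries PDGFRB came first at 0.855 ± 0.075 RPKM, then CSF1R at 0.0480 ± 0.021 and KIT at 0.0106 ± 0.0048, with the other 6 at 0.00465 or below. These first 3 were separated from each other by more than their SDs, and KIT was not separated from KDR, the next below it. In A498 parental the first 4 were not separated: PDGFRB at 0.0423 ± 0.0075 RPKM, FLT4 at 0.0412 ± 0.016, KIT at 0.0364 ± 0.013 and CSF1R at 0.0304 ± 0.014. In 786-O resistant PDGFRB led at 0.0865 ± 0.00999 RPKM, followed by CSF1R at 0.0496 ± 0.023 and PDGFRA at 0.0229 ± 0.0055, the last 2 not separated. In 786-O parental CSF1R led at 0.308 ± 0.054 RPKM, ahead of PDGFRB at 0.0360 ± 0.012 and KDR at 0.0220 ± 0.0073, which overlapped. Among 18733 protein-coding genes, 42.8% had a lower RPKM than PDGFRB in A498-labelled resistant libraries, and 39.0% a lower RPKM than CSF1R in 786-O parental. The next highest share was 30.7%, for PDGFRB in 786-O resistant.

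PDGFRB, the receptor for PDGF-B and PDGF-D (ENSG00000113721.14, GRCh38 chromosome 5, 150113837 to 150155872, minus strand), was higher in resistant than in parental cells of both labels. In A498-labelled resistant libraries it ran from 5.35 to 7.00 CPM (median 6.22), against 0.222 to 0.401 CPM (median 0.294) in A498 parental. All 9 resistant-labelled libraries lay far above every A498 parental library, with no overlap. In 786-O resistant libraries it ran from 0.514 to 0.711 CPM (median 0.623), against 0.142 to 0.402 CPM (median 0.230) in 786-O parental. These 2 sets did not overlap either, but they were much closer. The pooled ratio was 20.1 (95% counting interval 16.2 to 25.1) for A498-labelled resistant libraries over A498 parental and 2.34 (1.84 to 3.01) for 786-O resistant over 786-O parental.

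PDGFRB rose in both tests, which were edgeR's quasi-likelihood tests on genes passing a filter on low counts, with p-values adjusted over all genes tested and called at 0.05. Its log2 change was 4.23 ± 0.11 (SE) between A498-labelled resistant libraries and A498 parental (edgeR, adjusted p = 5.75e-35) and 1.11 ± 0.18 between 786-O resistant and 786-O parental (edgeR, adjusted p = 1.26e-06). It rose under each antibody: by 1.02 with atezolizumab, 1.38 with avelumab and 0.95 with durvalumab in 786-O (71.9%, 73.1% and 71.2% of genes called in the 3 tests), and by 4.04, 4.41 and 4.24 with the same antibodies in the A498-labelled cells (79.1%, 80.4% and 79.7% of genes called). In 786-O 83.8% of 19369 tested genes were called, and in the A498-labelled cells 88.2% of 19458, so a call by itself sets no gene apart. In the A498-labelled cells PDGFRB also passed the filter only through the resistant-labelled libraries, where it is high. Its call there is thus a description of its level. By size, 94.9% of the 16297 tested genes that reached 1 CPM in either A498-labelled state changed less than PDGFRB. Against 786-O resistant, A498-labelled resistant libraries were still higher by 3.27 ± 0.095 on the log2 scale (edgeR, adjusted p = 9.93e-35), and 99.9% of 15509 such genes changed less, where 65.9% of 20752 tested genes were called.

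Pericytes and fibroblasts are the cell types best known for PDGFRB, so their markers are given beside it. The summed level of 10 such markers was 158 to 174 CPM in A498-labelled resistant libraries, 68.0 to 79.0 in A498 parental, 107 to 115 in 786-O resistant, against 66.0 to 74.1 in 786-O parental. In each state 5 or 6 of the 10 reached 1 CPM, and MCAM, an adhesion molecule of many cell types, gave most of the sum outside A498 parental. RGS5, a pericyte marker, averaged 9.87 CPM in A498-labelled resistant libraries against 3.51 in A498 parental, and 3.28 in 786-O resistant against 3.08 in 786-O parental. LUM, a matrix proteoglycan of fibroblasts, averaged 16.2 CPM in A498-labelled resistant libraries against 0.0142 in A498 parental, and 7.34 in 786-O resistant against 4.52 in 786-O parental. RGS5 and LUM were thus highest where PDGFRB was highest. CSPG4, another pericyte marker, was not: it reached 1 CPM in A498 parental and 786-O resistant alone. NOTCH3 reached 1 CPM in no state. ACTA2 and COL1A1 also reached 1 CPM in every state, and COL1A1 was highest in A498 parental at 55.7 CPM. COL1A2, COL3A1 and DCN, other fibroblast markers, stayed at or below 0.0578 CPM in every state. The part of this list in the PDGFRB difference was not tested.

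PDGFRA, the receptor for PDGF-A, PDGF-B and PDGF-C (ENSG00000134853.12, chromosome 4, 54229097 to 54298247, plus strand), was found at levels of a few counts per library. It had 0 or 1 count per library in A498-labelled resistant libraries (3 in all), against 0 to 5 counts (24 in all) in A498 parental. It had 6 to 12 counts in every 786-O resistant library (83 in all), against 0 in all 9 libraries of 786-O parental. The 786-O sets did not overlap, and 0 of the 351634143 counts in 786-O parental allows a level of up to 0.00853 CPM. PDGFRA was at least 26.0-fold higher in 786-O resistant than in 786-O parental, taking 3 counts over the group as the limit for 0, and the exact 95% interval of that ratio begins at 20.7. The ratio of A498-labelled resistant libraries to A498 parental was 0.173 (0.0333 to 0.569), and that to 786-O resistant was 0.0614 (0.0124 to 0.186). PDGFRA was thus highest in 786-O resistant libraries, whereas PDGFRB was highest in A498-labelled resistant libraries. It did not pass the filter on low counts in these comparisons, so these ratios carry counting intervals in place of a test. These and the following intervals cover counting error only.

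CSF1R, the receptor of macrophages for CSF1 and IL-34 (ENSG00000182578.13, chromosome 5, 150053291 to 150113372, minus strand), fell in 786-O resistant cells. It ran from 0.0998 to 0.426 CPM (median 0.221) in 786-O resistant libraries, against 1.23 to 2.13 CPM (median 1.59) in 786-O parental, with no overlap. The log2 change was -2.79 ± 0.16 (edgeR, adjusted p = 1.46e-16), and 97.4% of the 15528 tested genes that reached 1 CPM in either 786-O state changed less. The fall was -2.31 ± 0.27 with atezolizumab, -3.53 ± 0.29 with avelumab and -2.52 ± 0.28 with durvalumab. The ratio of pooled counts was 0.155 (0.123 to 0.193), a 6.47-fold lower level.

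In the A498-labelled cells CSF1R was low on both sides. It ran from 0.0817 to 0.457 CPM (median 0.226) in A498-labelled resistant libraries, against 0.0587 to 0.261 CPM (median 0.153) in A498 parental. The 2 sets overlapped widely, with a pooled ratio of 1.64 (1.10 to 2.45) and no test, because CSF1R did not pass the filter there. The difference between the lines in the change was tested over all 36 libraries: the 786-O change minus the A498-labelled change was -3.39 ± 0.39 for CSF1R and -3.14 ± 0.23 for PDGFRB (edgeR, adjusted p = 1.87e-11 and 5.67e-18), where 80.4% of 20752 genes were called. FLT4 differed the other way, at 7.60 ± 1.31 (edgeR, adjusted p = 1.13e-06), a fitted value that rests on 0 counts in 786-O parental and is no bound. Without the avelumab replicate 3 library of 786-O resistant, which held 3 of that state's 10 FLT4 counts, the fitted value was 6.67 with no usable SE, and it was not called. A498-labelled resistant libraries did not differ from 786-O resistant in CSF1R beyond the spread, at -0.08 ± 0.27 (edgeR, adjusted p = 0.823).

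Markers of macrophages, the cells best known for CSF1R, were low where CSF1R was high. The summed level of 10 macrophage markers was 0.927 to 1.49 CPM in 786-O resistant libraries, against 0.684 to 1.17 CPM in 786-O parental. AIF1, CD163 and TYROBP had 0 counts in 786-O parental, PTPRC averaged 0.0034 CPM and SPI1 0.0033 CPM. The sum was 0.900 to 1.495 CPM in A498-labelled resistant libraries, against 10.6 to 12.5 CPM in A498 parental, most of it ADGRE1 at 7.07 CPM and ITGAM at 2.25 CPM.

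KIT, the stem cell factor receptor (ENSG00000157404.15, chromosome 4, 54657918 to 54740715, plus strand), was highest in A498 parental. A498-labelled resistant libraries had 0.0408 to 0.117 CPM (median 0.0482), against 0.0739 to 0.359 CPM (median 0.199) in A498 parental. The sets overlapped at their edges, where avelumab replicate 1 of A498 parental lay below 2 of the resistant-labelled libraries. The pooled ratio was 0.295 (0.149 to 0.542), a 3.39-fold lower level, from 13 counts in A498-labelled resistant libraries and 61 in A498 parental. In 786-O there were 11 counts in resistant and 14 in parental libraries, a ratio of 0.738 (0.303 to 1.75). Of 10 markers of mast cells and progenitors, 2 reached 1 CPM in every state, the transcription factors GATA2 and MECOM. The sum over all 10 markers was 27.4 to 30.1 CPM in A498-labelled resistant libraries against 17.6 to 20.9 in A498 parental. It was 23.0 to 24.8 CPM in 786-O resistant against 26.8 to 29.4 in 786-O parental. CPA3 and MS4A2, which define mast cells, stayed at or below 0.0097 CPM.

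FLT3, a receptor of blood progenitors (ENSG00000122025.15, chromosome 13, 28003274 to 28100592, minus strand), was at the limit of detection in every state. It had 3 counts in A498-labelled resistant libraries and 1 in A498 parental, and 7 in 786-O resistant against 2 in 786-O parental. The ratios, 4.15 (0.333 to 218) and 3.29 (0.626 to 32.4), have intervals that hold 1, and no difference was detectable at this depth.

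The 3 VEGF receptors were each low and did not share a pattern. FLT4, the receptor for VEGF-C and VEGF-D of lymphatic endothelium (ENSG00000037280.16, chromosome 5, 180601506 to 180649624, minus strand), had 0 to 0.0806 CPM (median 0) in A498-labelled resistant libraries, against 0.141 to 0.573 CPM (median 0.370) in A498 parental. No library of the 2 states overlapped. FLT4 was lower in the resistant-labelled libraries by 4.47 ± 0.53 on the log2 scale (edgeR, adjusted p = 1.69e-10). The ratio of pooled counts was 0.0741 (0.0266 to 0.166), a 13.5-fold lower level. Since FLT4 passed the filter only through A498 parental, where it is high, this call is a description of its level. In 786-O it had 10 counts in 6 of 9 resistant libraries and 0 in all parental libraries, at least 3.13-fold higher in 786-O resistant by the limit of 3 counts, with an exact 95% interval that begins at 2.105. The ratio of A498-labelled resistant libraries to 786-O resistant was 1.02 (0.304 to 3.09), from 6 and 10 counts.

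KDR, the main signalling receptor for VEGF-A (ENSG00000128052.10, chromosome 4, 55078259 to 55125595, minus strand), was highest in 786-O parental. It had 0 to 0.125 CPM (median 0.0385) in 786-O resistant libraries, against 0.0981 to 0.230 CPM (median 0.120) in 786-O parental. The sets overlapped through 2 resistant libraries, atezolizumab replicate 2 and durvalumab replicate 2. The ratio was 0.357 (0.199 to 0.616), a 2.80-fold lower level, from 19 counts in 786-O resistant against 50 in 786-O parental. In the A498-labelled cells it had 7 counts in resistant-labelled and 8 in parental libraries, a ratio of 1.21 (0.373 to 3.82).

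FLT1, which binds VEGF-A, VEGF-B and PGF (ENSG00000102755.12, chromosome 13, 28300344 to 28495145, minus strand), was near 0 throughout. It had 8 counts in 5 of the 9 libraries labelled A498 resistant, against 0 in A498 parental, at least 3.69-fold higher by the limit of 3 counts, with an exact 95% interval that begins at 2.36. It had 5 counts in 786-O resistant, against 1 in 786-O parental, a ratio of 4.70 (0.526 to 222).

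Endothelial cells, the usual source of these receptors, were checked by 10 markers. Their sum was 3.05 to 4.57 CPM in A498-labelled resistant libraries, 3.84 to 5.21 in A498 parental, 2.87 to 3.91 in 786-O resistant, against 1.19 to 1.96 in 786-O parental. CDH5 stayed at or below 0.0172 CPM and PECAM1 at or below 0.144 CPM in every state. ESAM led the sum outside A498 parental, where TEK led at 2.105 CPM.

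RET, the receptor for GDNF family ligands (ENSG00000165731.20, chromosome 10, 43077027 to 43130351, plus strand), had 3 counts in A498-labelled resistant libraries against 12 in A498 parental. It had 13 counts in 6 of 9 libraries of 786-O resistant, against 0 in 786-O parental, at least 4.07-fold higher by the limit of 3 counts, with an exact 95% interval that begins at 2.86. The A498-labelled ratio of 0.346 (0.0626 to 1.28) holds 1 in its interval. Of 10 neural crest markers at most 1 reached 1 CPM in a state, DBH in both resistant states and CHGA in A498 parental, and S100B had 0 counts in all 4 states.

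**Figure D3:**
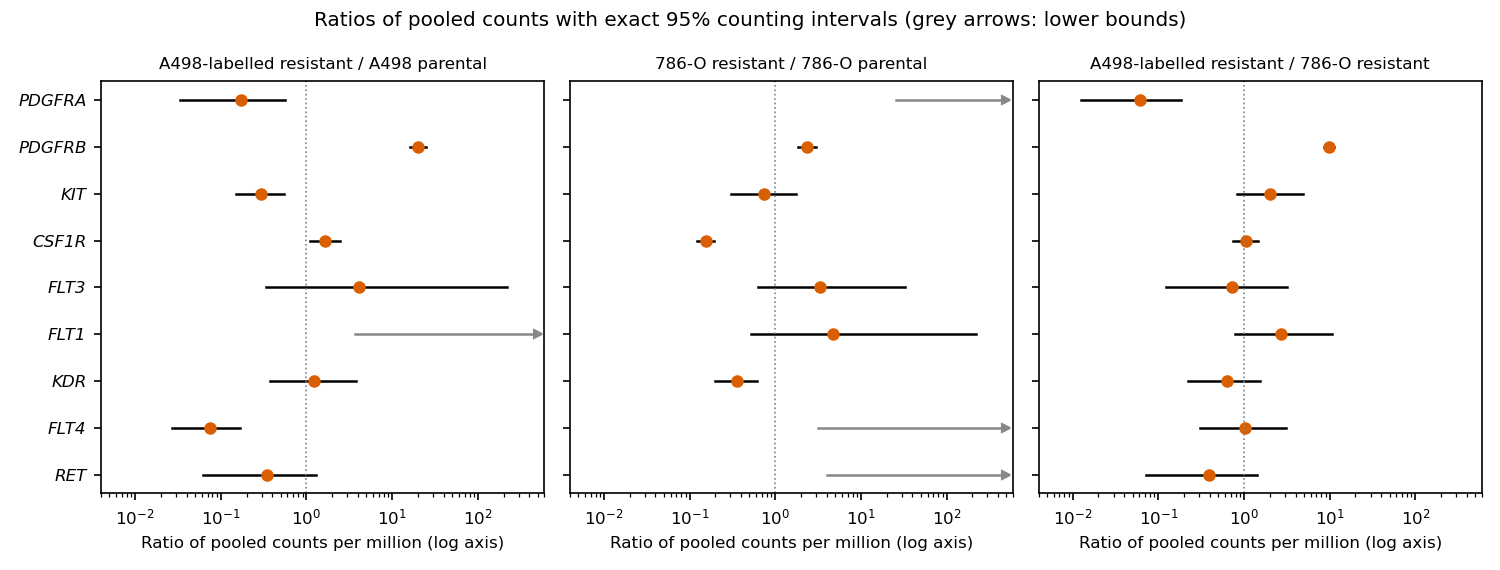
Ratios of pooled CPM (x axis, log scale) for each receptor (rows) between A498-labelled resistant libraries and A498 parental, 786-O resistant and 786-O parental, and A498-labelled resistant libraries and 786-O resistant. Bars are exact 95% counting intervals and grey arrows start at the fold against the limit of 3 counts where the second state had 0 counts; PDGFRB lies above 1 in all 3 panels and CSF1R far below 1 only in the 786-O panel.

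Counted over the list, 2 of 9 receptors passed the filter in each line, and both were called in each: PDGFRB up and CSF1R down in 786-O, PDGFRB up and FLT4 down in the A498-labelled cells. In the A498-labelled cells PDGFRB and FLT4 each passed the filter through the state where it is high, so that count supports nothing beyond the values. In 786-O both PDGFRB and CSF1R also passed the filter in each state taken alone. Of all genes that passed the filter, 83.8% were called in 786-O and 88.2% in the A498-labelled cells. The 2 calls in each line thus do not set the receptors apart. Without the filter, edgeR called 6 of 9 receptors in 786-O, where 49.5% of 38263 genes were called, and 5 of 9 in the A498-labelled cells, where 52.7% of 39010 were called. The added calls in 786-O were PDGFRA, FLT4 and RET, higher in resistant cells (adjusted p = 7.46e-18, 0.00724 and 0.00229), and KDR, lower (adjusted p = 0.00064). In the A498-labelled cells they were PDGFRA and KIT, lower (adjusted p = 0.00134 and 0.000131), and FLT1, higher (adjusted p = 0.00471).

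The parental lines differed from each other in CSF1R and FLT4 and not detectably in PDGFRB. A498 parental had 0.0587 to 0.261 CPM of CSF1R, against 1.23 to 2.13 CPM in 786-O parental, a 10.1-fold lower level. Its log2 difference was -3.46 ± 0.19 (edgeR, adjusted p = 3.60e-24), where 85.2% of 20752 tested genes were called. FLT4 was at least 43.1-fold higher in A498 parental, since 786-O parental had 0 counts, and PDGFRA at least 9.23-fold higher, by the limit of 3 counts. The exact 95% intervals of these ratios begin at 34.5 for FLT4 and 6.95 for PDGFRA. KIT was 5.03-fold higher (2.78 to 9.73) in A498 parental, and the ratio of KDR was 0.185 (0.0756 to 0.393). PDGFRB differed by 0.13 ± 0.20 on the log2 scale (edgeR, adjusted p = 0.574).

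Set against 786-O parental, A498-labelled resistant libraries had the PDGFRB and CSF1R changes of 786-O resistant in direction, with more PDGFRB. PDGFRB was higher by 4.36 ± 0.11 and CSF1R differed by -2.88 ± 0.18 on the log2 scale (edgeR, adjusted p = 2.59e-38 and 1.21e-20), where 79.5% of 20752 genes were called. This comparison shares 786-O parental with that of 786-O resistant, so likeness between them is no independent result. Between A498-labelled resistant libraries and 786-O resistant, PDGFRA was the single one of the 7 receptors other than PDGFRB and CSF1R whose counting interval left out 1. Without the filter edgeR called it there (log2 difference -4.12, adjusted p = 1e-10, 33.5% of 41923 genes called).

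No difference among the antibodies passed the test for a receptor. In no state was a receptor called by the test of any difference among the 3 antibodies, for the 1 to 3 receptors per state that passed the filter there. By the same edgeR test 0.0114% of genes were called in A498-labelled resistant libraries, 3.83% in A498 parental, 0.741% in 786-O resistant, against 3.52% in 786-O parental. At an unadjusted p under 0.05 the same test also gave 0 receptors, and DESeq2 called 0 too. The number of genes called moved with single libraries. When 1 library was left out at a time, it ran from 0 to 89 in A498-labelled resistant libraries (2 with all), from 233 to 892 in A498 parental (704 with all), from 71 to 1160 in 786-O resistant (140 with all) and from 299 to 1235 in 786-O parental (618 with all). The highest counts came without durvalumab replicate 3 of A498-labelled resistant, avelumab replicate 3 of A498 parental, and durvalumab replicate 1 of each 786-O state, and the receptors called stayed at 0. Among the tests of single antibody pairs 1 had an unadjusted p under 0.05. These were 3 tests in each state for each of the 1 to 3 receptors that passed the filter there. PDGFRB in A498-labelled resistant libraries, the best counted receptor, averaged 6.21 ± 0.83 CPM with atezolizumab, 6.08 ± 0.47 with avelumab and 6.02 ± 0.48 with durvalumab (SD, n = 3 each). These groups overlapped, and their pairwise log2 differences lay between -0.03 and -0.0025 with SEs of 0.11.

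That pair was avelumab and atezolizumab, for CSF1R in 786-O resistant. Its counts were 11, 8 and 4 with avelumab, against 17, 12 and 9 with atezolizumab. The levels were 0.163 ± 0.068 CPM with avelumab and 0.340 ± 0.11 CPM with atezolizumab (SD, n = 3 each), and the avelumab library with 11 counts (0.235 CPM) overlapped the lowest atezolizumab library (0.221 CPM). The log2 difference of avelumab minus atezolizumab was -1.04 ± 0.44, which did not pass (edgeR, adjusted p = 0.260), where 1.21% of 18886 genes were called. In 786-O parental the same pair differed by 0.21 ± 0.17 for CSF1R, with 1.77 ± 0.38 CPM under avelumab and 1.56 ± 0.16 CPM under atezolizumab. The A498-labelled states, where CSF1R did not pass the filter, had more under avelumab: 0.344 ± 0.12 CPM against 0.153 ± 0.072 under atezolizumab in A498-labelled resistant libraries, and 0.201 ± 0.042 against 0.0887 ± 0.045 in A498 parental, whose 2 sets did not overlap. Without the filter neither passed (edgeR, adjusted p = 0.906 and 0.518). The test of whether the antibodies changed the CSF1R fall between 786-O states did not pass (edgeR, adjusted p = 0.274), where 0.614% of genes were called. For FLT4 in the A498-labelled cells it did not pass either (edgeR, adjusted p = 0.530, 0.889% of genes called).

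Of the 9 receptor genes 7 lie in 3 clusters. PDGFRA, KIT and KDR follow each other on chromosome 4 with gaps of 359.7 and 337.5 kb, FLT3 and FLT1 lie 199.8 kb apart on chromosome 13, and CSF1R and PDGFRB lie on the same strand of chromosome 5 with a gap of 464 bases. PDGFRB and CSF1R, the closest neighbours, moved in opposite directions in 786-O. HMGXB3, on the far side of CSF1R, was at 148 ± 6.2 CPM in A498-labelled resistant libraries, 113 ± 7.8 in A498 parental, 144 ± 4.4 in 786-O resistant, against 122 ± 8.4 in 786-O parental. CDX1 and SLC6A7, beyond PDGFRB, stayed at or below 0.0036 CPM. The pair thus sits between a well transcribed gene and nearly undetected ones.

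The other clusters also had both well detected and nearly undetected neighbours. Next to PDGFRA, GSX2 was at or below 0.0193 CPM, whereas CHIC2 had 5.98 to 9.55 CPM as state means. Beyond KDR, SRD5A3 had 14.3 to 24.5 CPM and TMEM165 77.2 to 120 CPM. PAN3, which lies between FLT3 and FLT1, had 16.5 to 23.6 CPM, and POMP beyond FLT1 97.6 to 135 CPM. No receptor in these 2 clusters averaged above 0.222 CPM in a state.

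**Figure D4:**
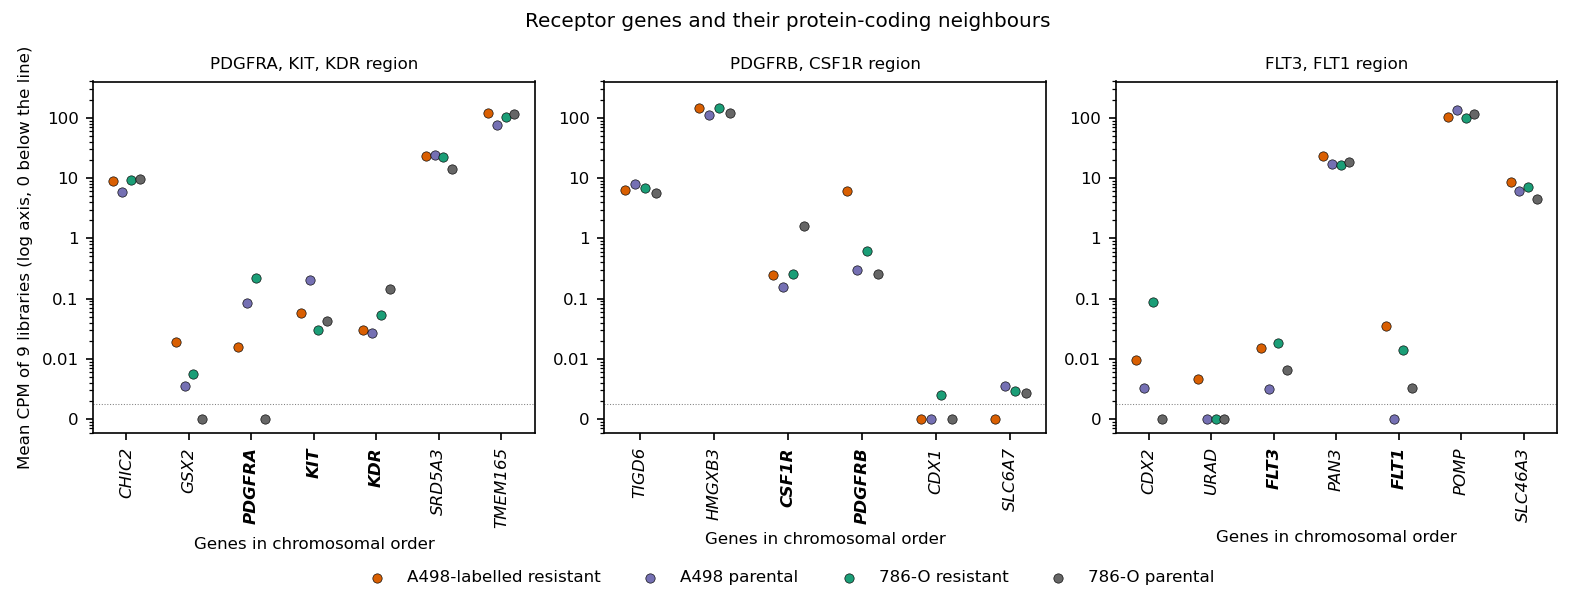
Mean CPM of 9 libraries (y axis, log scale, with 0 drawn below the dotted line) of the receptor genes (bold) and their protein-coding neighbours in chromosomal order (x axis) in the 3 clusters; colours mark the cell states. The receptors lie below 1 CPM except PDGFRB in A498-labelled resistant libraries (6.11 CPM) and CSF1R in 786-O parental (1.59 CPM), beside neighbours at 4.45 to 148 CPM and neighbours at or near 0.

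The upstream sequences of this pair are shown because PDGFRB and CSF1R are neighbours that moved in opposite directions in 786-O. RefSeq windows of 250 bases before the start (GRCh38.p14) matched 8 of the 9 receptors. They are printed 5′ to 3′ on the minus strand, and capitals mark the motifs searched on both strands. These were the CCAAT box, spelt CCAAT, the GC box, spelt GGGCGG, the TATA box, spelt TATAAA, an E-box, spelt CACGTG, and an ETS-type core, spelt GAGGAA.
PDGFRB, chr5:150155846-150156095: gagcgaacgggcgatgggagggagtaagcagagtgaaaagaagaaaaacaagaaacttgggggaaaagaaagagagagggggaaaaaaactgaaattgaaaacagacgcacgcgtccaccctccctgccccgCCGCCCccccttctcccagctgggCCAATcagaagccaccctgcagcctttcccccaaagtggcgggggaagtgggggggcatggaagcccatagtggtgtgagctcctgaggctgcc
CSF1R, chr5:150113366-150113615: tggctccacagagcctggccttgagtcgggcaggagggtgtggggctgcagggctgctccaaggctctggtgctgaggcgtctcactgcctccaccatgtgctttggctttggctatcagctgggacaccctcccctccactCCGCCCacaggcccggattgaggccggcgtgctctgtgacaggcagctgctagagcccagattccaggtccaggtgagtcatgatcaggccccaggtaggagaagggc
PDGFRB has a CCAAT box 94 bases before its start and a GC box, on the other strand, at 118 bases. CSF1R has a GC box at 108 bases in this window, and its other RefSeq start, with the window chr5:150086555-150086804, has 2 copies of GAGGAA. Of 35116 windows of this length, 32.0% hold CCAAT, 42.6% GGGCGG, 10.7% TATAAA, 6.3% CACGTG and 23.6% GAGGAA. The matches are descriptions of the letters only. The PDGFRB window is 58.4% G or C and the CSF1R window 64.4%.

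The genes nearest in pattern were sought for both receptors that reached 1 CPM. Over the 12 group means of log2 CPM, among 15056 genes with at least 1 CPM in a group, the closest to PDGFRB by Pearson correlation were ITM2A (0.993) and RHOBTB3 (0.993). ITM2A had 1.015 CPM in A498-labelled resistant libraries, against 0.0110 in A498 parental, and 0.0837 in 786-O resistant against 0 in 786-O parental. RHOBTB3 had 114 CPM in A498-labelled resistant libraries, against 55.7 in A498 parental, and 65.5 in 786-O resistant against 49.2 in 786-O parental. The closest to CSF1R were TRMU (0.975) and HOXD1 (0.975). TRMU had 49.6 CPM in A498-labelled resistant libraries, against 41.4 in A498 parental, and 52.0 in 786-O resistant, against 77.6 in 786-O parental. HOXD1 had 1.73 CPM in A498-labelled resistant libraries, 1.42 in A498 parental, 1.90 in 786-O resistant, against 4.46 in 786-O parental. The 12 means come from 4 cell states, with any batch that followed them, and the correlations are descriptions.

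The ligands were far more abundant than the receptors. Of 17 ligand genes, 10 to 13 reached 1 CPM in each state, against 0 or 1 of the 9 receptors. Their sum was 604 to 663 CPM in A498-labelled resistant libraries, 1471 to 1688 in A498 parental, 822 to 893 in 786-O resistant, against 775 to 847 in 786-O parental. Per exonic length, CSF1 had 39.4 RPKM in A498-labelled resistant libraries, 198 in A498 parental, 68.4 in 786-O resistant, against 51.9 in 786-O parental, while its receptor CSF1R stayed at or below 0.308. PDGFB, the ligand of PDGFRB, had 8.43 RPKM in A498-labelled resistant libraries, against 16.5 in A498 parental, and 16.7 in 786-O resistant, against 15.6 in 786-O parental. VEGFA had 14.3 RPKM in A498-labelled resistant libraries, against 17.9 in A498 parental, and 15.3 in 786-O resistant, against 18.8 in 786-O parental. GDNF and FLT3LG were scarce too, at or below 0.0200 RPKM.

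**Figure D5:**
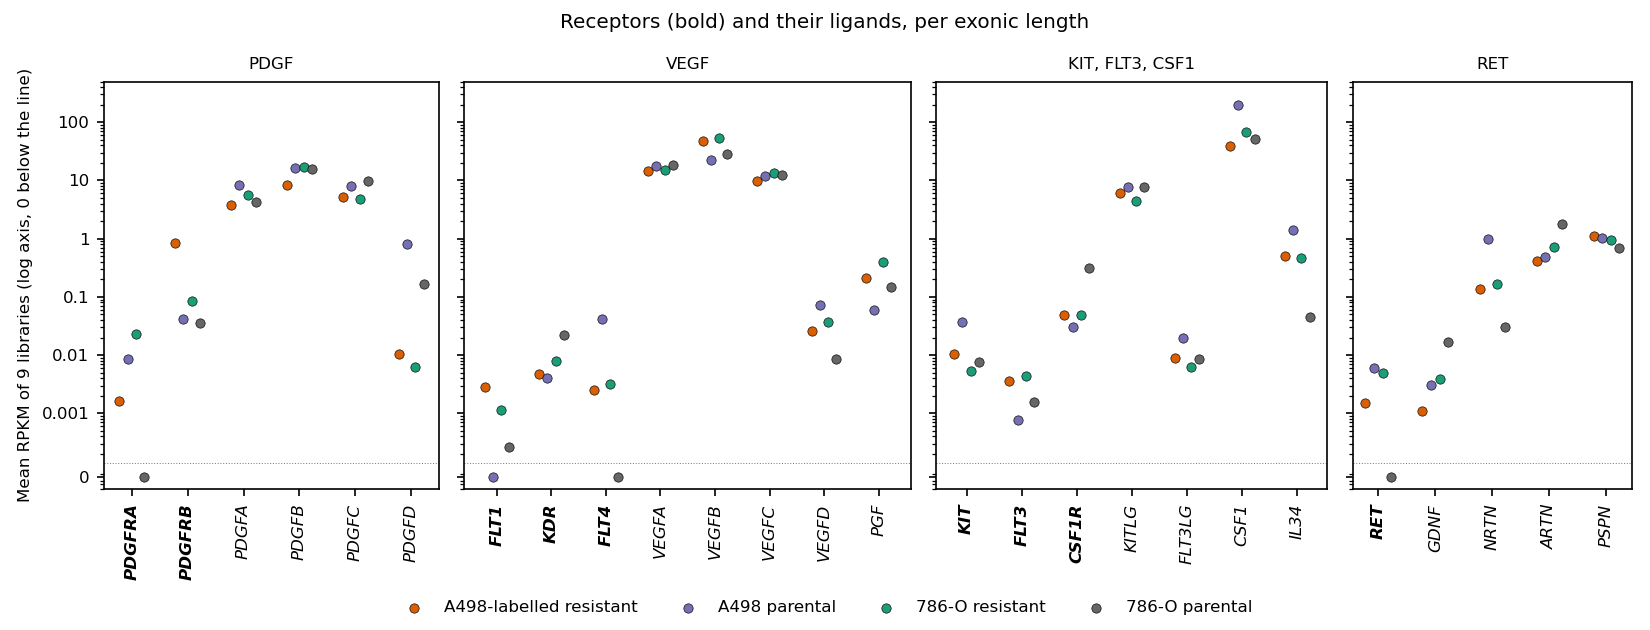
Mean RPKM of 9 libraries (y axis, log scale, with 0 drawn below the dotted line) of the receptors (bold) and their ligands (x axis), grouped by family; colours mark the cell states. Most PDGF and VEGF ligands, CSF1 and KITLG lie above 1 RPKM and every receptor lies below 1 RPKM.

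In 786-O resistant against 786-O parental, 7 ligand genes rose and 5 fell of 14 tested, where 43.6% of all genes tested rose and 40.2% fell. The median log2 change was 0.15, against 0.03 over all genes tested. IL34, the other ligand of CSF1R, rose to 1.03 ± 0.15 CPM in 786-O resistant, against 0.0991 ± 0.045 CPM in 786-O parental (log2 change 3.31 ± 0.20, edgeR, adjusted p = 4.08e-16), where CSF1R itself fell. PGF, a ligand of FLT1, rose by 1.29 ± 0.096, and ARTN, a GDNF family ligand, changed by -1.42 ± 0.075. PDGFB did not pass, at 0.0018 ± 0.043. PDGFC and PDGFD fell, with log2 changes of -1.13 and -4.67 (edgeR, adjusted p = 5.41e-26 and 1.43e-15).

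In A498-labelled resistant libraries against A498 parental, 2 ligand genes rose and 11 fell of 14 tested, where 44.2% of all genes tested rose and 44% fell. The median was -0.58, against 0.01 over all genes tested. PDGFD, a ligand of PDGFRB, had 0.0451 ± 0.031 CPM in A498-labelled resistant libraries, against 3.50 ± 0.53 CPM in A498 parental, and CSF1 had 213 ± 3.6 CPM in A498-labelled resistant libraries, against 1074 ± 63 CPM in A498 parental. Their log2 changes were -6.22 ± 0.21 and -2.42 ± 0.023. NRTN, a GDNF family ligand, changed by -2.88 ± 0.21, and IL34 by -1.59 ± 0.11. The change of IL34 in 786-O minus that in the A498-labelled cells was 4.88 ± 0.23 (edgeR, adjusted p = 1.2e-26). The rises were VEGFB at 0.98 ± 0.031 and PGF at 1.82 ± 0.16. In the parental lines, A498 over 786-O, the count was 6 higher and 6 lower of 14, where 85.2% of all genes tested were called. It was led by NRTN at 4.95 ± 0.29 and IL34 at 4.94 ± 0.16.

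Among the coreceptors, few genes could be tested. In 786-O resistant against 786-O parental 2 rose and 4 fell of 6 tested, with a median of -0.45 against 0.03 over all genes tested, of which 43.6% rose and 40.2% fell. NRP1, a coreceptor of the VEGF receptors, had 39.7 ± 2.8 CPM in 786-O resistant, against 114 ± 8.6 CPM in 786-O parental, a log2 change of -1.63 ± 0.031. In A498-labelled resistant libraries against A498 parental 1 rose and 5 fell of 6, with a median of -1.83 against 0.01 over all genes tested, of which 44.2% rose and 44% fell. NRP1 changed by -2.12 ± 0.024 and NRP2 by -2.45 ± 0.025. A498 parental exceeded 786-O parental in 6 of 7 coreceptors, all but GFRA1, a coreceptor of RET, at -2.45 ± 0.032, where 85.2% of all genes tested were called in either direction.

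The relays and negative regulators of receptor signalling were detected throughout. Of 29 relay genes, 26 or 27 reached 1 CPM in every state, and of 23 negative regulators 21 or 22 did. In 786-O resistant against 786-O parental 12 relays rose and 11 fell of 27, and 6 negative regulators rose and 12 fell of 22, with medians of 0.01 and -0.19 against 0.03 over all genes. Of all genes tested 43.6% rose and 40.2% fell, and the relays lay near those shares. PLCG2, a phospholipase of immune cell signalling, had 6.28 ± 0.36 CPM in 786-O resistant, against 0.229 ± 0.082 CPM in 786-O parental, a log2 change of 4.63 ± 0.11. DUSP4, a phosphatase that is a target of ERK signalling, rose by 1.54 ± 0.064, while DUSP6, another, changed by -1.23 ± 0.065. PTPRB, a receptor phosphatase of vessels, had 84.1 ± 6.2 CPM in 786-O resistant, against 33.2 ± 1.9 CPM in 786-O parental.

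In A498-labelled resistant libraries against A498 parental 14 relays rose and 12 fell of 27, and 7 negative regulators rose and 14 fell of 22, with medians of 0.23 and -0.49 against 0.01 over all genes, of which 44.2% rose and 44% fell. PTPRB had 91.1 ± 2.2 CPM in A498-labelled resistant libraries, against 1.65 ± 0.30 CPM in A498 parental, a log2 change of 5.70 ± 0.043. The parental lines themselves differed in PTPRB, A498 minus 786-O, by -4.39 ± 0.049 on the log2 scale. Against 786-O parental, A498-labelled resistant libraries were higher by 1.30 ± 0.029 and 786-O resistant by 1.23 ± 0.030. Line and resistance cannot be told apart in the value of 5.70. SRC, a relay kinase, changed by -1.92 ± 0.023, and SPRY1 and SPRY4, which restrain ERK signalling, by -2.87 ± 0.17 and -2.77 ± 0.072. SPRY4 levels in A498-labelled resistant libraries, at 2.02 ± 0.33 CPM, lay near those of 786-O resistant (2.35 ± 0.24) and 786-O parental (2.00 ± 0.31), and far from A498 parental (12.9 ± 1.2).

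Between A498-labelled resistant libraries and 786-O resistant, 2 ligand genes were higher and 8 lower of 14 tested, where 65.9% of all genes tested were called, with a median log2 difference of -0.23 against -0.01 over all genes tested. PDGFB differed by -1.01 ± 0.042, PGF by -0.89 ± 0.10 and ARTN by -0.84 ± 0.11. Of the relays 16 were higher and 7 lower of 27, and of the negative regulators 11 were higher and 6 lower of 22, among them DUSP6 at 0.82 ± 0.074. Of the PDGFRB ligands, PDGFB was thus lower and PDGFD, at 0.66 ± 0.61, did not pass (edgeR, adjusted p = 5.20e-21 and 0.348).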

How the data were processed

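The deposited table holds raw counts per gene for 36 libraries of poly(A) RNA, made with a stranded mRNA kit per the labels' protocols. The submitters' processing notes name featureCounts 1.6.3 for counting, HISAT2 2.1.0, Trimmomatic 0.36.6 and bcl2fastq 2.19.0, with the build GRCh38. The sources used here do not give the annotation release or the strand setting. Multi-mapped reads and the counting of overlapping genes could therefore not be checked, which touches PDGFRA most. No pair of libraries was identical (0 pairs).

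CPM was taken over all counts of a library (19994882 to 58122896), and RPKM over the union of exons in GENCODE 29, which also gave the coordinates. It held 43799 of the 45478 identifiers. Tests used edgeR 4.0.16 (quasi-likelihood, TMM, limma 3.58.1, R 4.3.3) on 12 groups averaged within cell state, on genes passing filterByExpr (count minimum 10, total 15), with Benjamini-Hochberg adjustment over all genes tested and a threshold of 0.05. Comparisons within a line used its 18 libraries, antibody tests the 9 of a state, and comparisons across lines all 36. The SE of an edgeR log2 change was its absolute value over the square root of the F statistic, so it is approximate. It should not be relied on where a state had 0 counts, as for FLT4 in 786-O parental. DESeq2 1.42.0, other size factors, other filters, the replicate block and leaving out libraries were alternatives. The scripts were tested on simulated data.

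Ratios of pooled counts have exact 95% intervals that cover counting error only, and the limit for 0 is 3 counts over the group. The 9 receptors, the lists and the tests were chosen with earlier results of these data known. The text names all receptors, their chromosomal neighbours, the 2 genes nearest each receptor that reached 1 CPM, and up to 3 called list genes per comparison with the largest change among those at 1 CPM. Other ligands and SPRY4 levels were named after their values were seen. Promoter windows are from RefSeq (GRCh38.p14). Same-numbered libraries did not deviate together (0 of 9 correlations per state over 0.1), so the numbers do not pair them.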

Additional observations from a re-analysis of the deposited data

Results flagged for a closer look

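For 3 receptors the change between resistant and parental libraries differed between the cell lines by a test of that difference over all 36 libraries (edgeR). The change in 786-O minus that in the A498-labelled cells was -3.135 for PDGFRB, -3.385 for CSF1R and 7.601 for FLT4 on the log2 scale. PDGFRB rose in both lines, by more in the A498-labelled cells. CSF1R fell in 786-O and was low in both A498-labelled states. FLT4 was lower in A498-labelled resistant libraries than in A498 parental and had 0 counts in 786-O parental. The FLT4 value therefore rests on 10 counts in 786-O resistant against 0 in 786-O parental, and on the one state through which FLT4 passed the filter, and without the avelumab replicate 3 library of 786-O resistant it was not called, so 2 of the 3 held when that library was left out. All of these use A498-labelled resistant libraries, in which HIF1A goes against the label, so line and resistance cannot be told apart in them. No single library stood apart from the other 8 of its state for the 7 sets of receptor and state that were examined.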

How the results depend on the processing

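Counts of receptors called depended mainly on the filter on low counts. With no filter they were 6 for 786-O resistant against 786-O parental, 5 for A498-labelled resistant libraries against A498 parental, 6 for A498 parental against 786-O parental, 2 for A498-labelled resistant libraries against 786-O resistant, 4 for them against 786-O parental, and 5 for the difference between the lines. Genes called without the filter were 18923 of 38263, 20555 of 39010 and 20618 of 41923 for the first 3 comparisons. For the last 3 they were 14024, 18044 and 18041 of 41923. The filtered counts of receptors were 2, 2, 2, 1, 2 and 3 in the same order. There 83.8%, 88.2%, 85.2%, 65.9%, 79.5% and 80.4% of genes tested were called. With a stricter filter (1 CPM in every library of a group, count minimum 50) the first 3 counts of receptors were 1 each. Genes called were then 13234 of 15226, 13856 of 15149 and 14329 of 16022. That filter left no receptor to test for the antibodies in A498 parental and 786-O resistant. Other size factors and DESeq2 moved none of the counts. The replicate block, given although the numbers do not pair the libraries, left the counts at 2, 2, 2, 1, 2 and 3, with PDGFRB at 1.14 and CSF1R at -2.78 in 786-O. Fitting the 18 parental libraries alone, chosen after seeing the data, kept 2.

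Leaving out 1 library at a time gave counts of 2 to 3 in each line and between the parental lines, 1 to 2 between the resistant states, 2 to 2 for A498-labelled resistant libraries against 786-O parental, 2 to 4 for the difference between lines, and 0 to 0 for all antibody tests. In 786-O the count was 3 except without durvalumab replicate 1 or 2 of 786-O resistant, where it was 2. In the A498-labelled cells it was 3 only without atezolizumab replicate 3 of the resistant-labelled libraries. The count of 2 between the resistant states arose in 18 of 36 omissions, where PDGFRA passed the filter. The log2 change of PDGFRB ran from 1.05 to 1.24 in 786-O and from 4.18 to 4.28 in the A498-labelled cells, and that of CSF1R in 786-O from -2.95 to -2.70. The uncalled CSF1R difference between A498-labelled resistant libraries and 786-O resistant ran from -0.21 to 0.09 and was positive without A498-labelled resistant atezolizumab replicate 3 (0.03), 786-O resistant avelumab replicate 1 (0.04) or 786-O resistant durvalumab replicate 3 (0.0902). The cause was not tested. Levels on TMM library sizes moved by less than 1 SD in all 36 cases. Depth limits FLT1, FLT3 and RET, which had at most 13 counts in a state.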
